A study of Mus musculus with 15 samples.

Results

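The Dlx genes of the mouse, Dlx1 to Dlx6, stand in 3 gene pairs, and these pairs were compared for EZH2, FLAG and H3K27me3 intervals in mouse embryonic fibroblasts. The members are all intervals of the 3 deposited peak lists that overlap a fixed window around each pair in build mm9. The windows were chromosome 2 from 71.33 to 71.42 Mb for Dlx1 and Dlx2, chromosome 6 from 6.77 to 6.87 Mb for Dlx5 and Dlx6, and chromosome 11 from 94.95 to 95.04 Mb for Dlx3 and Dlx4. They held 5 of the 2466 intervals in the lists, all 5 at Dlx3 and Dlx4. The windows were set by gene position and not by interval values, but gene annotation of mm9 was not used here, so the position of each gene inside its window was not checked.

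The series covers 5 conditions of these cells with 3 antibodies each by chromatin immunoprecipitation and sequencing, in 15 libraries without replicates. The 3 lists all come from fibroblasts carrying a floxed EED gene and a lentivirus for stable expression of wild-type EZHIP, an inhibitor of the methyltransferase complex PRC2. The submitters call the H3K27me3 intervals residual. No list from fibroblasts without EZHIP was used, so the lists do not show which pairs carry the mark in such cells. EZH2 is the catalytic subunit of PRC2, H3K27me3 is the histone mark it deposits, and the FLAG antibody is read here as marking tagged EZHIP, the remaining target that the design text lists. EED, through which PRC2 recognises H3K27me3, is a core part of the complex, and no Cre treatment or drug is given in the labels of these 3 libraries. Cells treated with DMSO or tazemetostat, EED-null cells and cells with EZHIP M406E make up the other 12 libraries, which were not analysed here. A list gives the start and end of each interval and no height, score or read depth, so a window without an interval had no call, which is not the same as no signal. With 1 library per antibody there is no replicate error, and no difference between the gene pairs could be tested. Cell type could not be checked from these lists, which hold no expression values.

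Dlx genes encode homeodomain transcription factors related to Drosophila Distal-less. In mammals the genes of a pair lie close together, are transcribed towards each other and share enhancers. Dlx1 and Dlx2 act in the forebrain, where they direct the development of GABAergic interneurons, and in the upper jaw. Dlx5 and Dlx6 specify the lower jaw and act in limb and bone, and Dlx3 acts in epidermis, hair follicle, teeth and placenta. Dlx4 has been studied less than the others. Developmental regulators of this kind are typical targets of PRC2 in cells that do not express them, and CpG-rich promoters are the usual place where PRC2 binds in vertebrates.

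In the RefSeq gene table (GRCm38.p6) all 6 genes were found, and the pairs are neighbours on their chromosomes. Dlx1 and Dlx2 lie between Metap1d and Itga6 and overlap the antisense gene Dlx1as. Dlx6 and Dlx5 lie between Sem1 and Sdhaf3, with the long noncoding genes Dlx6os1, also known as Evf2, and Dlx6os2. Dlx3 and Dlx4 lie in this order between Itga3 and Tac4, and Gm38659 and Dlx4os overlap the span of the pair. This table is of another build than the lists, so only names and order were taken from it.

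Promoter sequences from RefSeq (GRCm38.p6) were matched for 2 of the 6 members, Dlx1 and Dlx2, and are shown because they belong to a pair without any interval. Each runs 5′ to 3′ on the gene's own strand, and capitals mark every CG dinucleotide. The Dlx1 promoter is chr2:71529195-71529494 on the + strand and the Dlx2 promoter is chr2:71546705-71547004 on the - strand, both in GRCm38.p6 positions, which cannot be set beside the mm9 positions of the lists.
Dlx1: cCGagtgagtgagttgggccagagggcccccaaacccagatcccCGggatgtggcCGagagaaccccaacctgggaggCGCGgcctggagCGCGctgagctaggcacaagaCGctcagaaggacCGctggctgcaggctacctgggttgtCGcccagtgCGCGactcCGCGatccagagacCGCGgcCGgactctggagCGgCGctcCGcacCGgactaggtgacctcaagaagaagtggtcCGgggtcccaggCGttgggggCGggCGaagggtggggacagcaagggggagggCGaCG
Dlx2: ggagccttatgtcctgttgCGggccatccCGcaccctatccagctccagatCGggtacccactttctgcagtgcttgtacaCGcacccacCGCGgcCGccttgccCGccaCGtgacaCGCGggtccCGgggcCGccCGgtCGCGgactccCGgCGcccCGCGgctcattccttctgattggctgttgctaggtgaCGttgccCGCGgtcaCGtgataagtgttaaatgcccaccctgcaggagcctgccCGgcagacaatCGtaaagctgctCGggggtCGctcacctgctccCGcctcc
The Dlx1 promoter held 27 CG dinucleotides in 300 bases and was 69.3% G or C. The Dlx2 promoter held 29 and was 66.3% G or C. The median over 32851 RefSeq promoter sequences of this length was 7 CG dinucleotides and 52.7% G or C. At least 27 CG dinucleotides were found in 15.5% of all promoters and at least 29 in 12.9%, where CG reads the same on both strands. Both promoters are thus at the CG-rich end of the range, and no list had an interval in their window. The share of equally CG-rich promoters with an interval was not measured, so nothing is read from this pairing.

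The gene pairs differed in whether any interval was called. Dlx1 and Dlx2 had 0 EZH2, 0 FLAG and 0 H3K27me3 intervals in their window of 90 kb. Dlx5 and Dlx6 likewise had 0 intervals of each list in a window of 100 kb. Dlx3 and Dlx4 had 1 EZH2, 1 FLAG and 3 H3K27me3 intervals in 90 kb, covering 5599, 1399 and 7397 bp.

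An empty window is the usual state of the genome in these lists. With each chromosome divided into 100 kb bins between its first and last interval, 3.61% of 24663 bins held an EZH2 interval, 1.74% a FLAG interval, 4.62% an H3K27me3 interval and 4.87% an interval of any list. The 2 empty Dlx windows therefore match most of the genome, and the Dlx3 and Dlx4 window is among the few, at most 1.74% of bins, that hold all 3 signals. Nothing particular to the Dlx genes is read from these counts.

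The empty pairs were also far from the nearest interval. Around Dlx1 and Dlx2, the stretch of chromosome 2 without an interval of any list ran from 70410800 to 73107400, or 2.70 Mb. Below the window, meaning at lower positions, the nearest site was an EZH2 interval of 14399 bp from 70396401 to 70410799, at 0.919 Mb, which carried FLAG (9199 bp) and H3K27me3 (12599 bp). Above the window it was an EZH2 interval of 10799 bp from 73107401 to 73118199, at 1.69 Mb, with H3K27me3 and without FLAG. The nearest FLAG interval above the pair lay 3.07 Mb away, from 74492801 to 74497799.

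Dlx5 and Dlx6 stood in a still longer empty stretch. It ran on chromosome 6 from 4356400 to 8896000, or 4.54 Mb. Its lower end was an H3K27me3 interval of 399 bp from 4356001 to 4356399, at 2.41 Mb, which overlapped neither EZH2 nor FLAG, and the nearest EZH2 interval on that side lay at 3.05 Mb. Its upper end was a site with all 3 signals at 2.03 Mb, with EZH2 over 12199 bp from 8896001 to 8908199, FLAG over 3199 bp and H3K27me3 over 11199 bp. No FLAG interval lay below the pair on chromosome 6.

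Stretches of this length are common. The median distance between neighbouring sites was 888 kb over 1154 such distances, of which 289, or 25%, were at least as long as the stretch at Dlx1 and Dlx2 and 158, or 13.7%, at least as long as that at Dlx5 and Dlx6. Because long stretches hold most of the sequence, 72.6% of the 2464 Mb between first and last intervals lay in stretches at least as long as the former and 54.0% in stretches at least as long as the latter. Both windows would stay empty if their edges were misplaced by 500 kb.

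**Figure D1:**
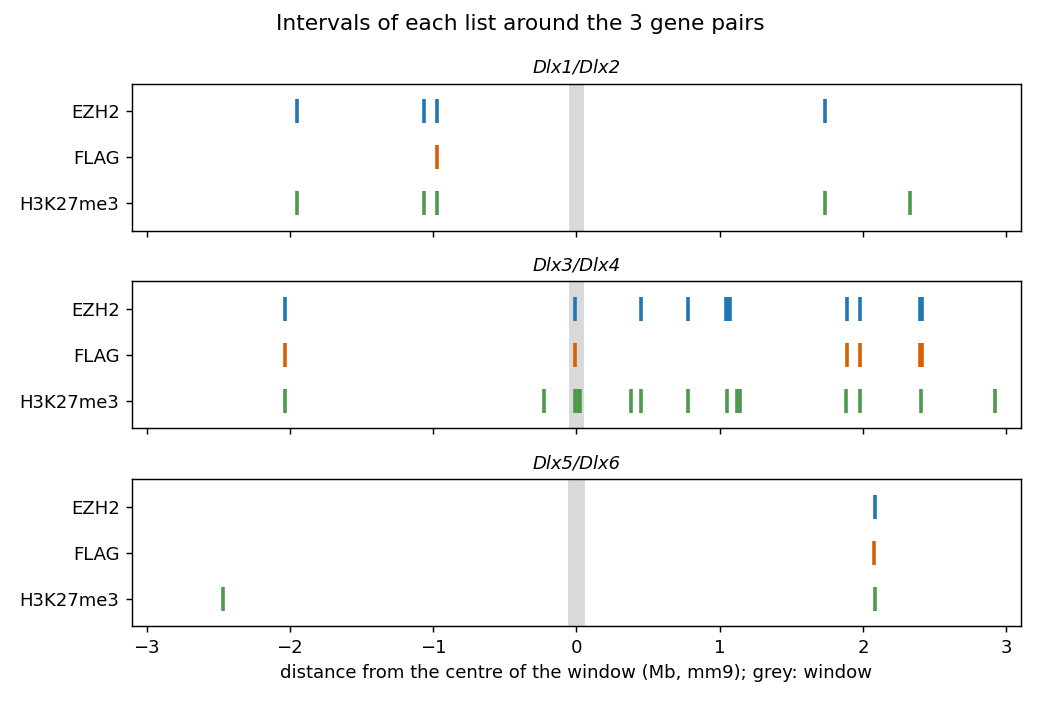
Intervals of the EZH2, FLAG and H3K27me3 lists around each Dlx gene pair, as vertical marks at their midpoints against the distance from the window centre in Mb, with the window in grey. Within 3 Mb of the centre there were 10 intervals around Dlx1/Dlx2, 32 around Dlx3/Dlx4 and 4 around Dlx5/Dlx6, and marks fall inside the grey window at Dlx3/Dlx4 only.

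The plot of intervals around the pairs shows different numbers in their surroundings. Within 3 Mb of the window centre, 11 EZH2, 6 FLAG and 15 H3K27me3 intervals lay around Dlx3 and Dlx4, those in the window included. Around Dlx1 and Dlx2 the counts were 4, 1 and 5, and around Dlx5 and Dlx6 they were 1, 1 and 2. Over 402 consecutive tiles of 6 Mb, an equal length, the median was 4 intervals of all lists together (interquartile range 1.25 to 8, maximum 41). At least the 32 intervals seen around Dlx3 and Dlx4 were found in 3 of the 402 tiles, or 0.746%, at least the 10 around Dlx1 and Dlx2 in 20.4%, and at least the 4 around Dlx5 and Dlx6 in 53.7%. A site called in several lists counts more than once, here and in the tiles. Only 5 of the 32 lay in the window itself. Most of the others lay far above it, such as H3K27me3 intervals from 1035.4 to 1070.4 kb and from 2398.2 to 2415.6 kb above the centre. The 32 therefore describe the surrounding 6 Mb and not the gene pair. The nearest EZH2 interval outside the Dlx3 and Dlx4 window lay 0.406 Mb above it, a 3199 bp interval with H3K27me3 and without FLAG, and 1.99 Mb below it. The nearest outside FLAG intervals were 1.84 Mb above and 1.99 Mb below.

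At Dlx3 and Dlx4 the 3 signals met at a single site on chromosome 11. EZH2 covered 94980201 to 94985799, 5599 bp wide. FLAG covered 94981601 to 94982999, 1399 bp wide and wholly inside the EZH2 interval. H3K27me3 covered 94980001 to 94985199, 5199 bp wide. The meeting of all 3 rests on a narrow FLAG interval: with intervals no wider than the lower quartile of their list left out (2399 bp for FLAG), 0 FLAG intervals remained and EZH2 met H3K27me3 alone. The sequence of these intervals is not printed because a genome of build mm9 was not used here, and for the same reason none of them is assigned to Dlx3 or to Dlx4.

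**Figure D2:**
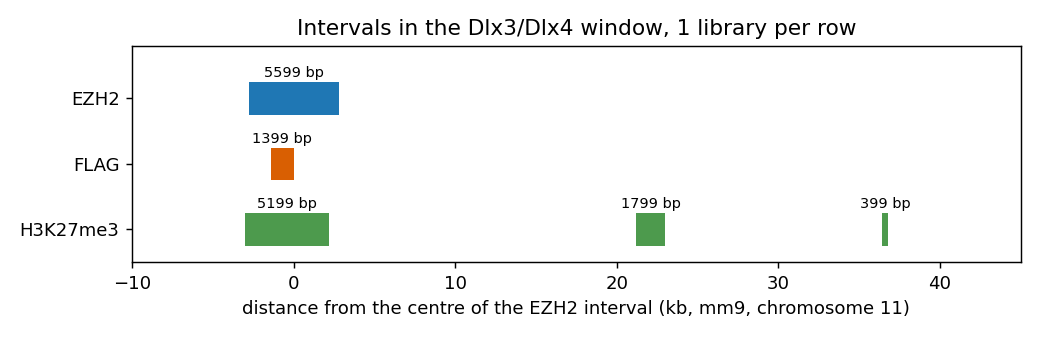
The 5 intervals in the Dlx3/Dlx4 window, drawn to scale against the distance in kb from the centre of the EZH2 interval, with 1 row per list and widths in bp. EZH2, FLAG and H3K27me3 overlap at the left, and 2 further H3K27me3 intervals of 1799 and 399 bp lie to the right with no EZH2 or FLAG above them.

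EZH2 and H3K27me3 had nearly the same extent at this site. The H3K27me3 interval began 200 bp outside the EZH2 interval on its lower side, which is 1 step of the 200 bp grid on which all intervals lie. On its upper side it ended 600 bp inside the EZH2 interval. H3K27me3 was 92.9% as wide as EZH2, against a median of 90.0% (interquartile range 75 to 100%) over the 764 sites where a single interval of each list met. The share was as low or lower at 58.5% of those sites, so the Dlx3 and Dlx4 site lay near the middle of the range.

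FLAG filled a minor and off-centre part of the EZH2 interval. It was 25% as wide as EZH2, where the 399 sites with a single EZH2 and a single FLAG interval had a median of 52.0% (interquartile range 37.0 to 65.1%). The share was as low or lower at 28 of the 399, or 7.02%. Those sites were not matched for EZH2 width, and low shares also occurred at wide EZH2 intervals, such as 8.41% at 21399 bp. Among the 12 sites with an EZH2 interval of exactly 5599 bp the share ran from 21.4 to 67.9% with a median of 35.7%, and it was as low or lower at 3 of the 12, this site included. FLAG began 1400 bp inside the lower EZH2 edge and ended 2800 bp inside the upper one, beside a median of 1800 bp (1400 to 2400 bp) over all edges of such sites. The FLAG midpoint was thus shifted towards lower positions (FLAG minus EZH2 midpoint, -700 bp), and 26.3% of sites had a difference between their edges of at least the 1400 bp seen here. Against H3K27me3, FLAG lay 1600 and 2200 bp inside the edges and was 26.9% as wide. A share as low or lower was found at 12.1% of 387 sites, whose median was 54.5%. These are positions in the lists with no test, since the site was 1 interval per library.

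**Figure D3:**
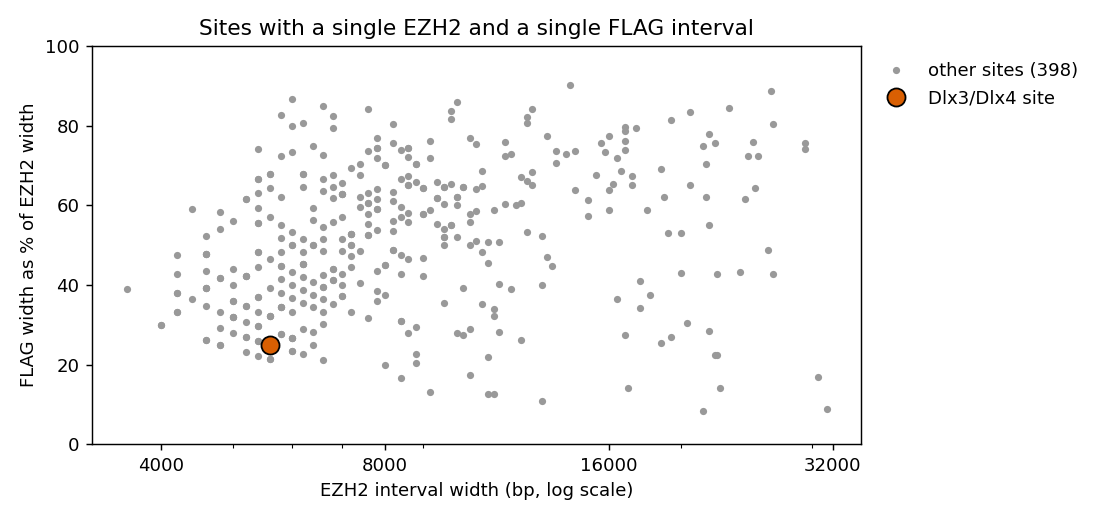
FLAG width as a percent of EZH2 width against EZH2 width in bp (log scale), with 1 point for each of the 399 sites where a single EZH2 and a single FLAG interval met. The Dlx3/Dlx4 site, the large point at 5599 bp and 25%, lies near the lower edge of the points at its width.

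By bases, the site spanned 5799 bp from the first to the last edge. All 3 signals covered 1399 bp of it, or 24.1%. EZH2 and H3K27me3 without FLAG covered 3600 bp, or 62.1%, EZH2 alone 600 bp and H3K27me3 alone 200 bp. No base had FLAG without both other signals.

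Widths placed EZH2 and the main H3K27me3 interval near the middle of their lists and FLAG near the bottom. The EZH2 interval was as wide as or wider than 509 of 902, or 56.4%, and the 5199 bp H3K27me3 interval than 643 of 1126, or 57.1%. The FLAG interval was as wide as or wider than 35 of 438, or 7.99%, with 11 narrower and a list minimum of 1199 bp. Among the 410 EZH2 intervals with FLAG, whose median width was 7799 bp, 80 were as narrow as the Dlx3 and Dlx4 one, or 19.5%. Exactly 5599 bp was the width of 18 EZH2 intervals, 12 of them with FLAG, and the FLAG widths in those 12 ran from 1199 to 3799 bp with a median of 1999 bp. A FLAG width of 1399 bp was therefore below the median also for EZH2 intervals of this width.

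**Figure D4:**
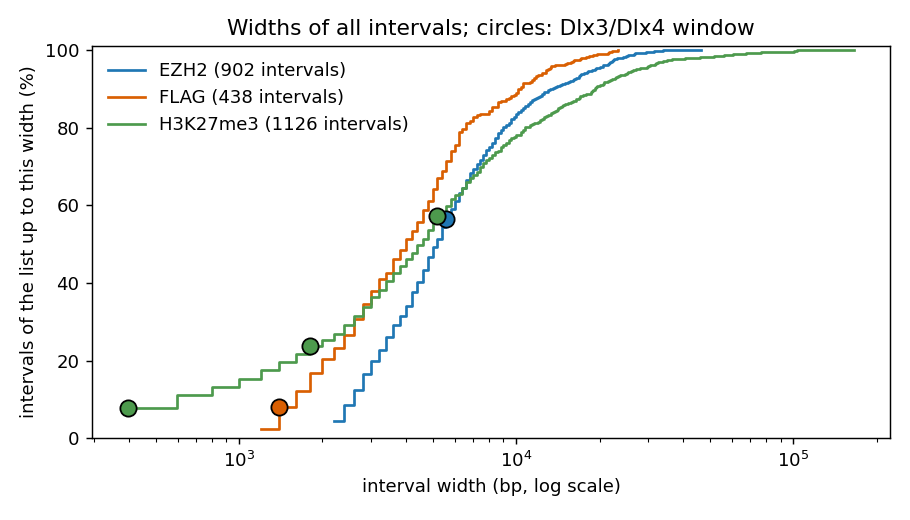
Cumulative share (%) of the intervals of each list up to a given width in bp (log scale), with the 5 intervals of the Dlx3/Dlx4 window as circles on the curve of their list. The EZH2 circle (56.4%) and the wider H3K27me3 circle (57.1%) sit near the middle, and the FLAG circle (7.99%) and the 399 bp H3K27me3 circle (7.82%) sit near the bottom.

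The site held both other signals for each of EZH2 and FLAG. The single EZH2 interval overlapped H3K27me3, as did 95.2% of all EZH2 intervals, and it overlapped FLAG, as did 45.5% of all and 76.2% of the 214 EZH2 intervals wider than the median and up to the upper quartile of width. The single FLAG interval overlapped EZH2 and H3K27me3, as did 96.6% and 98.6% of all FLAG intervals. A share of 1 of 1 has an exact Clopper-Pearson 95% interval of 2.5 to 100%, so these shares say little beyond the site itself.

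The other 2 H3K27me3 intervals in the window had neither EZH2 nor FLAG. The first ran from 95004201 to 95005999, 1799 bp wide, and began 18.4 kb above the EZH2 interval. The second ran from 95019401 to 95019799, 399 bp wide, and began 33.6 kb above it. Between the 3 H3K27me3 intervals lay gaps of 19.0 and 13.4 kb without a call of any list, so the mark was not called as a continuous domain over the window.

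With these, 1 of 3 H3K27me3 intervals overlapped EZH2, or 33.3% (exact Clopper-Pearson 95% interval 0.84 to 90.6%, counting error only), against 71.7% of all H3K27me3 intervals, and 1 of 3 overlapped FLAG, against 36.1% of all. The 3 are neighbouring calls of 1 library and not independent draws, so the 95% interval measures no replicate error. With intervals no wider than the lower quartile of their list left out, 1 H3K27me3 interval remained and the share with EZH2 was 100%. Narrow H3K27me3 intervals lack EZH2 more often in general: up to the lower quartile of width, 1999 bp, 39.5% of 286 overlapped EZH2. The width of 399 bp is the smallest in the list, shared by 88 intervals, of which 9 overlapped EZH2. The 2 intervals also lie at widths at which the EZH2 list, with a minimum of 2199 bp, has no intervals at all. Overlap needs only 1 bp, and whether this minimum bears on their lack of EZH2 was not tested.

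H3K27me3 intervals without EZH2 this close to an EZH2 interval were counted over the whole list. The share of all sequence that close to EZH2 was not measured, so whether the counts are low was not tested. Of 319 H3K27me3 intervals without EZH2, 17, or 5.33%, lay within 50 kb of an EZH2 interval, those in the window included. This distance was chosen after the intervals were seen. For H3K27me3 intervals without EZH2 of at most 1799 bp the count was 10 of 170, or 5.88%. Seen from EZH2, 18 of 902 intervals had at least 1 H3K27me3 interval without EZH2, of any width, within 50 kb. At least 2 were found for 2 of 902, or 0.222%, the Dlx3 and Dlx4 interval being 1 of those 2. Outside the window, the next H3K27me3 intervals were a 399 bp interval 181 kb below and a 599 bp interval 335 kb above, both also without EZH2 and FLAG.

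Counting the 3 H3K27me3 intervals together, the Dlx3 and Dlx4 window had 1.32 bp of H3K27me3 for each bp of EZH2. At the joint site alone the ratio was 0.929, and the median over the 807 sites with both signals was 0.909 (interquartile range 0.762 to 1.00). The excess over 1 thus came from the intervals outside the EZH2 site. FLAG covered 25% of the EZH2 bases, against a median of 50% (35.5 to 64.6%) over 401 sites with EZH2 and FLAG. No ratio could be formed for Dlx1 and Dlx2 or for Dlx5 and Dlx6.

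Regions most like the Dlx3 and Dlx4 pair were sought among 1174 regions, formed by joining intervals of all lists within 5 kb, by the distance between the log2 bp covered by each list. For Dlx3 and Dlx4 all intervals of the window were pooled instead, 5599, 1399 and 7397 bp of EZH2, FLAG and H3K27me3. The 2 further H3K27me3 intervals lie more than 5 kb from the joint site, so the 2 sides were not formed alike. The likeness of the joint site alone was not measured. The nearest, at a distance of 0.10, was chromosome 19 from 44908001 to 44915199, with EZH2 over 5999 bp, FLAG over 1399 bp and H3K27me3 over 7199 bp. The next, at 0.21, was chromosome 5 from 117861001 to 117867799, with 6199, 1399 and 6599 bp. Both held a single interval of each list, whereas the H3K27me3 bases at Dlx3 and Dlx4 were spread over 3 intervals.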

How the data were processed

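Chromatin from mouse embryonic fibroblasts was digested with micrococcal nuclease and immunoprecipitated, per the labels' protocols. Bowtie 1.0.0 and deepTools were used with build mm9, per the submitters' processing notes. The sources used here give no peak caller, threshold, control library or depth. Each of the authors' deposited lists holds interval starts and ends in bp, 1 list per library, with starts on a 200 bp grid. Printed starts are counted from 1, and widths are end minus deposited start.

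Samples were grouped by title. Every interval overlapping a window was named. Overlap meant at least 1 bp shared. Likeness was the Euclidean distance over log2 (bp covered + 200) per list, naming the 2 nearest regions. It set the pooled intervals of the Dlx3/Dlx4 window against regions joined within 5 kb. Python 3.11.15, numpy 2.4.6 and scipy 1.17.1 were used, and the overlap functions were tested on simulated data. No test between gene pairs was run, since each antibody had 1 library. The members and rules were chosen with earlier results of these data known.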

Additional observations from a re-analysis of the deposited data

How the results depend on the processing

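Alternatives were run for 14 results, 51 values in all, of which 43 equalled the main value or lay within the set tolerance (1.5 times for counts, 1 step of 200 bp for ratios) and 8 did not. Dlx1/Dlx2 and Dlx5/Dlx6 stayed at 0 intervals of each list with windows widened by 50 kb and, chosen after the data were seen, by 500 kb on each side. They also stayed at 0 with narrow intervals left out or intervals within 5 kb joined. Those 2 alternatives could not add an interval there, so these zeros, counted among the 43, were fixed in advance. Windows widened by 500 kb raised Dlx3/Dlx4 to 2 EZH2 and 6 H3K27me3 intervals. Leaving out every interval no wider than the lower quartile of its list, in place of a stricter threshold that lists without scores do not allow, removed FLAG at Dlx3/Dlx4 (0 intervals, 0% of EZH2 intervals with FLAG and FLAG over 0% of EZH2 bases). It also left 1 H3K27me3 interval, with 100% of them overlapping EZH2 and 0.929 bp of H3K27me3 per bp of EZH2, because the 1799 and 399 bp intervals fall under that width. Requiring 50% of the smaller interval, allowing 5 kb, joining intervals within 5 kb and clipping to the window changed no value. Clipping could not change any, since the Dlx3/Dlx4 intervals lie wholly inside the window. No replicate could be left out, and no paired analysis was possible because each group is 1 library. Read depth is unknown, so what it limits was not measured.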
